A study of Rattus norvegicus with 9 samples.

Results

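The genes described here were the 4 Notch receptors (Notch1, Notch2, Notch3 and Notch4), 4 of their ligands (Jag1, Jag2, Dll1 and Dll4) and the target genes Hes1 and Hey1, measured as mRNA in rat prostates. These 10 genes were listed by name, for their role in the pathway. Of them, 9 had at least 1 probe whose accession matched their symbol, with 11 probes among the 30356 probes used. No probe was matched to Jag2, which is therefore not analysed here. Notch1 and Dll4 had 2 probes each, and the other 7 genes had 1.

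Prostates of male Sprague Dawley rats, which were 6 weeks old at purchase, were compared in 3 groups of 3 rats, with 1 one-colour Agilent array per rat. Rats of the BPH group, a model of benign prostatic hyperplasia, had been castrated and given subcutaneous dihydrotestosterone (3 mg/kg daily for 4 weeks), with oral vehicle. BPH+ghrelin rats had received the same operation and the same dihydrotestosterone, and additionally ghrelin, a peptide hormone of the stomach, by mouth (20 nmol/kg for 2 weeks). A figure legend of the study gives another dose and route of ghrelin. Sham rats had a sham operation, the oil used as solvent and oral vehicle. The comparison of BPH with sham thus covers castration together with hormone replacement, and that of BPH+ghrelin with BPH covers the addition of ghrelin. The tissue was bulk prostate, in which fewer cells of a type and less RNA per cell cannot be told apart.

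The 75th percentile of the raw signal ranged from 326 to 1057 between arrays and was lowest on sham replicate 2. On this array the scanner software marked 61.4% of the probes as well above background, and 69.5% or more on each other array. BPH arrays and BPH+ghrelin replicate 1 were on slide 1, BPH+ghrelin replicates 2 and 3 and sham replicates 1 and 2 on slide 2, and sham replicate 3 on slide 3, so that group and slide were largely confounded. In every group, 1 array (BPH replicate 2, BPH+ghrelin replicate 2 and sham replicate 3) lay between the other 2 for 72.1% to 76.9% of 17858 probes, and the p-values, which assume independent arrays, do not account for this. Prostate identity was visible in every array: Pbsn (probasin), an androgen-dependent secretory protein of the rat prostate, had log2 signals of 13.10 to 14.11 in BPH, 14.34 to 14.46 in BPH+ghrelin and 16.16 to 16.41 in sham. Over the 11 tested genes of the prostate secretory list, 7 were above 0 in BPH against sham (53.7% of all genes were), with a median of 0.38. Of these 11 genes, 2 were called higher and 2 lower, while 4.33% of all genes were called. Genes of the seminal vesicle and coagulating gland, taken as a list, had mean log2 signals of 7.91 to 8.97 in sham, 4.65 to 7.08 in BPH and 4.05 to 5.74 in BPH+ghrelin, and their part in the results for Notch genes was not tested.

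Notch signalling connects neighbouring cells. A ligand of the Jagged or Delta-like family on one cell binds a Notch receptor on the next, the receptor is cut by ADAM proteases and then by γ-secretase, and its released intracellular domain joins the DNA-binding protein RBPJ and Mastermind proteins to switch on genes of the Hes and Hey families, which are themselves repressors. In the prostate, Notch1 and Jag1 are known from epithelial progenitors and stroma, Notch3 from smooth muscle and pericytes, and Notch4 and Dll4 mainly from endothelium.

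RBPJ binds a short core, TGGGAA, which was searched for in the 250 bases before the start of each gene in RefSeq (GRCr8). Both strands were searched, the core reading TTCCCA when it lies on the opposite strand. Promoter entries were found for 8 of the 10 genes, with 9 windows in all, and Dll4 and Hey1 were without an entry in the table used. The core was present in Hes1, Dll1 and Notch4, with 2 copies in each, and its letters were not in the windows of Notch1, Notch2, Notch3, Jag1 and Jag2. Among 33469 windows of the same length in the same table, 22.1% held at least 1 core and 2.71% held at least 2. The windows of Hes1 (chr11:84213046-84213295, minus strand), the textbook target gene, and of Dll1 (chr1:64993275-64993524, minus strand) are shown from 5′ to 3′, with the core in capitals. Dll1 was the only ligand of the list in whose window the core was found.

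Hes1: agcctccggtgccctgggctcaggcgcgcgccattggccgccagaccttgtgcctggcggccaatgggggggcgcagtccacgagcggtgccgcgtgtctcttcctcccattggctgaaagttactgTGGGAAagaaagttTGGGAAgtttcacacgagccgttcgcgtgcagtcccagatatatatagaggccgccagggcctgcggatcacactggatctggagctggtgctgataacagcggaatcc

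Dll1: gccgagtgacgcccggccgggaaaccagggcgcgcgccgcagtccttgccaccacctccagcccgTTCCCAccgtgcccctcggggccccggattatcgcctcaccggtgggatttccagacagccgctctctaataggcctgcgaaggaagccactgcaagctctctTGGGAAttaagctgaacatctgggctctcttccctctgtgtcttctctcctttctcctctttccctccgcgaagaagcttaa

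In Hes1, both copies faced the same way and began 123 and 109 bases before the gene start. In Dll1, the copies faced opposite ways and began 185 and 82 bases before the start. A match of these letters describes the sequence only, and no binding was measured.

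None of the Notch genes passed an adjusted p under 0.05 (limma, Benjamini-Hochberg adjustment over all genes tested) in any comparison. Here and below, all genes include probes without a matched gene symbol. These counts were 0 of 9 genes in BPH against sham, where 4.33% of all genes passed, 0 of 9 in BPH+ghrelin against BPH, where 1.48% passed, and 0 of 8 in BPH+ghrelin against sham, where 6.30% passed. At an unadjusted p under 0.05, 2 genes were higher in BPH than in sham (Notch1 and Dll1), against 26.5% of all genes in either direction. The corresponding genes were Dll4 (higher by the first of its 2 probes) and Notch1 (lower) in BPH+ghrelin against BPH, with 21.1% of all genes, and Dll4 (higher by the same probe) in BPH+ghrelin against sham, with 23.7%. The median log2 difference of the Notch genes was 0.20 in BPH against sham, -0.069 in BPH+ghrelin against BPH and 0.029 in BPH+ghrelin against sham, compared to 0.039, 0.015 and 0.041 over all genes tested. The first 2 of these medians turned sign when 1 array was left out, to -0.15 in BPH against sham without sham replicate 2 and to 0.017 in BPH+ghrelin against BPH without BPH+ghrelin replicate 1. The groups did not overlap for 2 of 9 (22.2%), 3 of 9 (33.3%) and 1 of 8 (12.5%) of the Notch genes, while the shares over all genes were 31.3%, 39.2% and 30.4%.

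**Figure D1:**
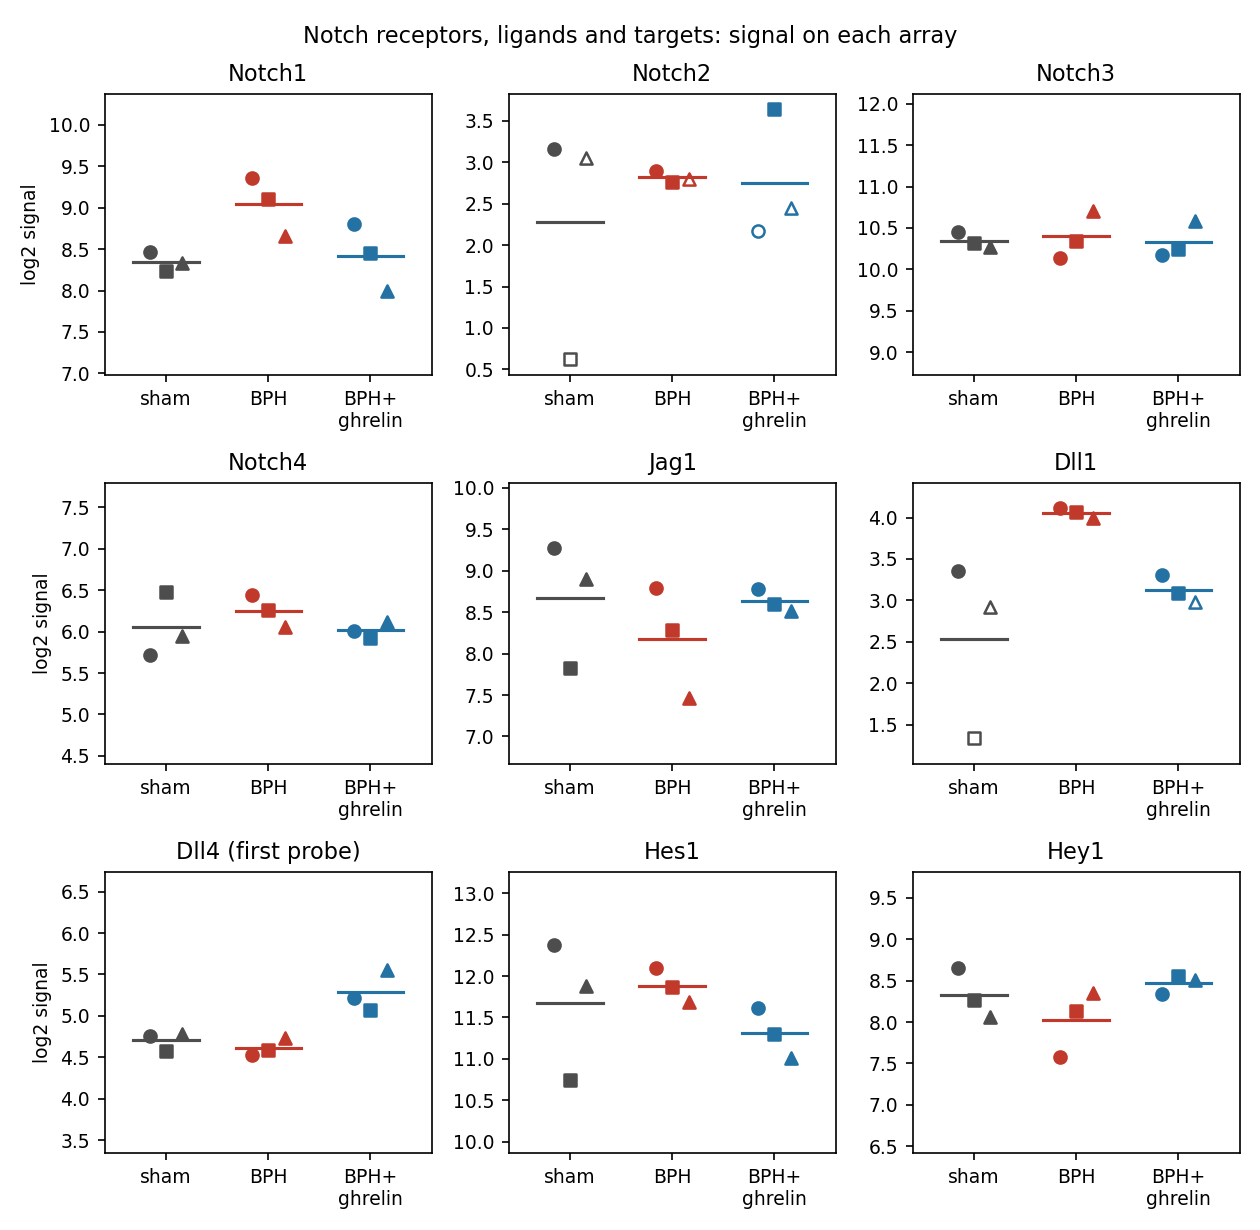
Log2 signal (quantile normalized) of 9 Notch genes on each of the 9 arrays; circles, squares and triangles are replicates 1, 2 and 3, horizontal lines are group means, open symbols were not well above background, and each panel spans the same log2 range. The 3 BPH arrays of Dll1 (3.99 to 4.11) lay above all other arrays, and the 3 BPH+ghrelin arrays of Dll4 (5.07 to 5.56) lay above all other arrays for the probe shown.

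Among the receptors, Notch1 had the largest differences that were well above background. Its log2 signals were 9.36, 9.11 and 8.66 in BPH, 8.80, 8.45 and 8.00 in BPH+ghrelin, and 8.47, 8.24 and 8.33 in sham. All BPH arrays were above all sham arrays, while BPH and BPH+ghrelin overlapped. Notch1 was 0.70 higher on the log2 scale in BPH than in sham (1.62-fold, SE 0.24, unadjusted p = 0.0200, adjusted p = 0.125 by limma). With slide as a fixed block this difference was 0.11 (adjusted p = 0.995 by limma), a setting in which 2 of all 19552 genes passed. No slide held both BPH and sham arrays, so this fit links the 2 groups only through BPH+ghrelin arrays and cannot separate slide from group. With slide as a random block the difference was 0.85 and passed the test (adjusted p = 0.0101), as did 7088 of all 19552 genes. Notch1 differed by -0.63 in BPH+ghrelin against BPH (SE 0.24, unadjusted p = 0.0316, adjusted p = 0.195 by limma). Between BPH+ghrelin and sham, the difference of 0.070 was smaller than its SE of 0.24. The values above are from 1 of its 2 probes; the other was well above background on 0 of 9 arrays.

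Notch3, the receptor of mural and smooth muscle cells, varied little. Signals were 10.14, 10.35 and 10.70 in BPH, 10.17, 10.24 and 10.59 in BPH+ghrelin, and 10.46, 10.32 and 10.26 in sham, and the 3 groups overlapped. The log2 differences were 0.051 for BPH against sham (95% confidence interval -0.36 to 0.46), -0.065 for BPH+ghrelin against BPH (-0.48 to 0.35) and -0.013 for BPH+ghrelin against sham (-0.42 to 0.40). With 3 arrays per group, differences within these intervals were not excluded.

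Notch4, a receptor of endothelial cells, had signals of 6.44, 6.27 and 6.05 in BPH, 6.01, 5.93 and 6.12 in BPH+ghrelin, and 5.72, 6.48 and 5.95 in sham. Groups overlapped in every comparison, with log2 differences of 0.20 (SE 0.20), -0.23 (SE 0.21) and -0.032 (SE 0.20) for BPH against sham, BPH+ghrelin against BPH and BPH+ghrelin against sham. Notch2 was too dim for a firm comparison, since only 4 of 9 arrays (2 of 3 BPH, 1 of 3 BPH+ghrelin and 1 of 3 sham arrays) measured it well above background. Its signals of 2.89, 2.77 and 2.80 in BPH, 2.17, 3.64 and 2.45 in BPH+ghrelin, and 3.16, 0.62 and 3.05 in sham overlapped, and it was not tested in BPH+ghrelin against sham.

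The ligand Dll1 had the largest difference of the 9 measured Notch genes in BPH against sham, from a dim probe that the sham arrays hardly measured. This rank was lost with normexp background correction, where Dll1 differed by 0.18 and Notch1 by 0.63. This Delta-like ligand had log2 signals of 4.11, 4.07 and 3.99 in BPH, 3.30, 3.09 and 2.98 in BPH+ghrelin, and 3.35, 1.33 and 2.92 in sham. BPH arrays lay within a range of 0.12 and above all arrays of both other groups, whereas BPH+ghrelin and sham overlapped. Dll1 was 1.52 higher in BPH than in sham on the log2 scale (SE 0.45, unadjusted p = 0.00872, adjusted p = 0.0876 by limma). Only 1 of 3 sham arrays was well above background, so the probe was compared only because of the BPH group, in which it was higher. The size of the difference is therefore uncertain, and its p-value does not decide whether Dll1 differed. Between BPH+ghrelin and BPH, the difference was -0.93 (SE 0.45, adjusted p = 0.271), and in BPH+ghrelin against sham it was 0.59 (SE 0.44, adjusted p = 0.469).

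Dll1 was well above background on 3 of 3 BPH, 2 of 3 BPH+ghrelin and 1 of 3 sham arrays, and sham replicate 2, the dimmest array, held its lowest value. Without sham replicate 2 the difference between BPH and sham fell to 0.92 but passed the test (adjusted p = 0.0289 by limma), as did 926 of all 19552 genes. It also passed without sham replicate 1 (1.93, adjusted p = 0.0267), with 3071 of all genes, and in the authors' matrix of processed values (1.14, adjusted p = 0.0268), with 1035. With normexp background correction of the median signal columns it was 0.18 (adjusted p = 0.166). These passes carry no weight of their own, since the probe was compared only because of the BPH arrays. Dll1 also passed in BPH+ghrelin against BPH when only these 6 arrays were normalized and fitted (-0.95, adjusted p = 0.0197), a setting in which 2101 of 19749 genes passed. In this comparison it was -0.13 with normexp (adjusted p = 0.331 by limma) and -0.75 with slide as a fixed block, and passed in neither.

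Dll4, the Delta-like ligand of sprouting endothelium, had the lowest adjusted p of the Notch genes, but its 2 probes moved in opposite directions. The first probe represents the gene by the rule of the highest mean signal over 9 arrays, but its mean was the higher of both only through the BPH+ghrelin arrays. It had log2 signals of 5.22, 5.07 and 5.56 in BPH+ghrelin, 4.53, 4.58 and 4.74 in BPH, and 4.76, 4.58 and 4.78 in sham. All BPH+ghrelin arrays were above all arrays of both other groups. The log2 difference was 0.67 in BPH+ghrelin against BPH (1.59-fold, SE 0.15, unadjusted p = 0.00229, adjusted p = 0.0737 by limma) and 0.58 against sham (1.49-fold, SE 0.15, unadjusted p = 0.00508, adjusted p = 0.0634). In BPH against sham it was -0.091 (SE 0.15). This probe passed in BPH+ghrelin against BPH with only these 6 arrays (0.68, adjusted p = 0.0456) and with slide as a random block (0.67, adjusted p = 0.0238), settings in which 2101 and 1830 of 19749 genes passed. It did not pass with slide as a fixed block (0.60) or with normexp (0.24, adjusted p = 0.126 by limma). Against sham it was 0.16 with normexp (adjusted p = 0.244).

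The second Dll4 probe had log2 signals of 4.42, 4.50 and 4.43 in BPH+ghrelin, 5.12, 4.86 and 4.57 in BPH, and 4.95, 4.96 and 4.58 in sham. Here all BPH+ghrelin arrays were below all arrays of both other groups. With every probe tested on its own, its log2 difference was -0.40 in BPH+ghrelin against BPH (SE 0.17, unadjusted p = 0.04996, adjusted p = 0.237 by limma). Against sham it was -0.38 (SE 0.17, unadjusted p = 0.0583, adjusted p = 0.230). Both probes were well above background on all 9 arrays. The log2 differences of the 2 probes were 1.07 apart in BPH+ghrelin against BPH and 0.96 apart in BPH+ghrelin against sham. A two-sided exact permutation test of this gap gave p = 0.1 in both, which is the smallest p that 3 against 3 arrays allow, and this test was chosen after the values had been seen. With the mean of both probes as the value of the gene, the difference in BPH+ghrelin against BPH was 0.13, and a direction for Dll4 can therefore not be given.

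**Figure D2:**
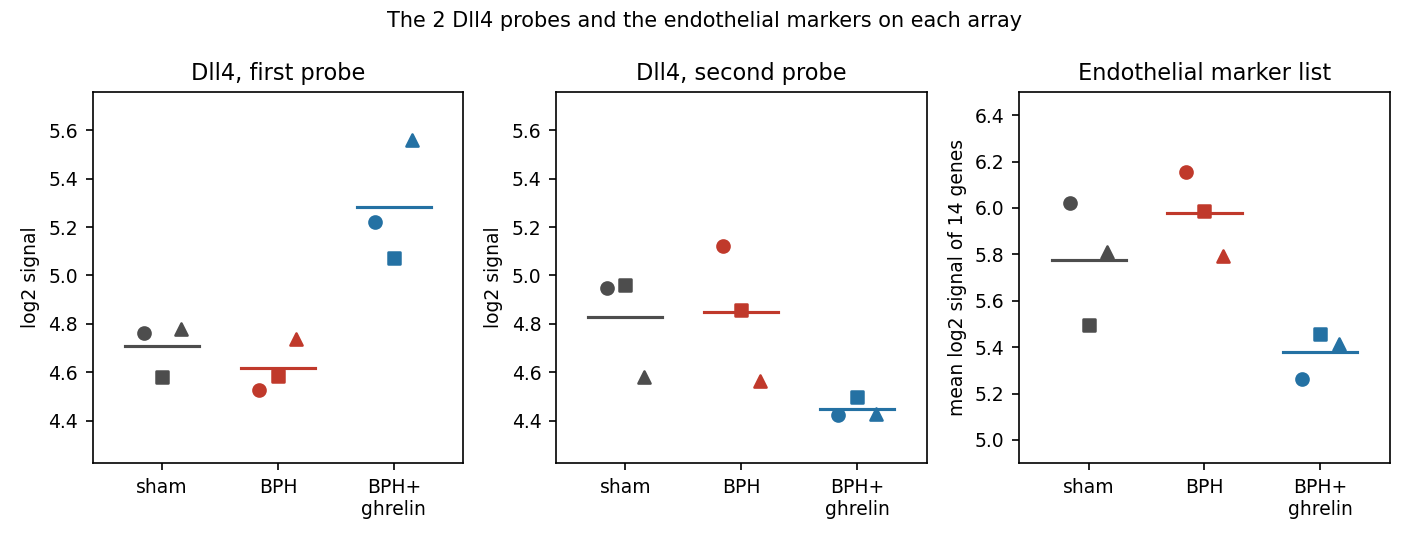
Log2 signal of the 2 Dll4 probes and mean log2 signal of 14 endothelial marker genes on each array; circles, squares and triangles are replicates 1, 2 and 3, and horizontal lines are group means. BPH+ghrelin arrays lay above the others for the first probe (5.07 to 5.56) and below the others for the second probe (4.42 to 4.50) and for the endothelial list (5.26 to 5.46).

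Markers of endothelial cells were examined on the same arrays. Their mean log2 signal, over 14 of 17 listed genes with a named probe, was 5.26 to 5.46 in BPH+ghrelin, 5.79 to 6.16 in BPH and 5.50 to 6.02 in sham. Against BPH, 12 of 13 genes tested were below 0 in BPH+ghrelin (48.3% of all genes were), with a median of -0.31, and 1 of them, Cldn5, a tight junction protein of endothelium, passed the test (-1.35, SE 0.20, adjusted p = 0.0272 by limma). Cdh5 was the 1 tested gene above 0 (0.19), and its groups overlapped. Of the 14 genes, 10 were well above background on all 9 arrays, among them Pecam1, Kdr and Cdh5. Eng, Sox17, Tek and Tie1 were so on 8, 7, 4 and 3 arrays, and Tek on 0 of 3 BPH+ghrelin arrays. Of the 8 pericyte genes tested, 7 were below 0 (median -0.62), as were 9 of 10 smooth muscle genes (median -0.52), 9 of 10 fibroblast and matrix genes (median -0.62), 8 of 10 immune genes (median -0.48) and 6 of 7 seminal vesicle and coagulating gland genes (median -0.88). The part of these markers in the values of Dll4, Notch4, Notch3 and Notch1 was not tested.

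The genes with the pattern most like the first Dll4 probe were Zfp652, Tgfbrap1 and Proca1. Over the 9 arrays, their centred log2 signals differed from those of Dll4 by a root mean square of 0.101, 0.108 and 0.119, compared to an SD of 0.346 of Dll4 itself, among 11154 candidate genes. None of them was on the lists of the pathway, and the second Dll4 probe did not share the pattern.

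Jag1, the Jagged ligand of epithelium and stroma, had log2 signals of 8.79, 8.29 and 7.46 in BPH, 8.78, 8.60 and 8.51 in BPH+ghrelin, and 9.27, 7.82 and 8.90 in sham. The groups overlapped, with BPH replicate 3 lowest. Differences were -0.49 in BPH against sham, 0.45 in BPH+ghrelin against BPH and -0.034 in BPH+ghrelin against sham, each with an SE of 0.42. The spread within BPH (SD 0.67, n = 3) and sham (SD 0.75, n = 3) was wider than any of these differences. With each array left out in turn, Jag1 ranged from -0.91 (without sham replicate 2) to -0.13 (without BPH replicate 3) in BPH against sham and from 0.092 (without BPH replicate 3) to 0.76 (without BPH replicate 1) in BPH+ghrelin against BPH.

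Of the target genes, Hes1, which keeps progenitors undifferentiated in many tissues, had log2 signals of 12.10, 11.86 and 11.69 in BPH, 11.62, 11.30 and 11.01 in BPH+ghrelin, and 12.38, 10.75 and 11.88 in sham. All BPH+ghrelin arrays were below all BPH arrays, while sham covered the range of both groups. The log2 difference in BPH+ghrelin against BPH was -0.57 (SE 0.38, adjusted p = 0.415 by limma), that in BPH against sham was 0.21 (SE 0.38) and that in BPH+ghrelin against sham was -0.36 (SE 0.38). The spread was widest in sham (SD 0.84, n = 3), in which replicate 2 was lowest. Without this array, Hes1 differed by -0.82 between BPH+ghrelin and sham (adjusted p = 0.0638).

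Hey1, a target gene best known from blood vessels, had signals of 7.58, 8.13 and 8.35 in BPH, 8.34, 8.56 and 8.51 in BPH+ghrelin, and 8.65, 8.26 and 8.06 in sham. BPH+ghrelin and BPH overlapped by a narrow margin, since BPH replicate 3 was just above the lowest BPH+ghrelin array. Differences were -0.30 in BPH against sham (SE 0.23, adjusted p = 0.413 by limma), 0.45 in BPH+ghrelin against BPH (SE 0.23, adjusted p = 0.300) and 0.14 in BPH+ghrelin against sham (SE 0.23). With each array left out in turn, Hey1 ranged from -0.47 to -0.083, from 0.23 to 0.61 and from 0.010 to 0.31 in these comparisons. Hes1 and Hey1 thus had differences of opposite sign in each comparison, but neither passed the test in any of them. In BPH against sham both were negative without sham replicate 2 (Hes1 -0.25, Hey1 -0.33) and with slide as a fixed block (-0.13 and -0.24). Both were also negative in BPH+ghrelin against sham without the 3 arrays lying between the others (-0.25 and -0.034).

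**Figure D3:**
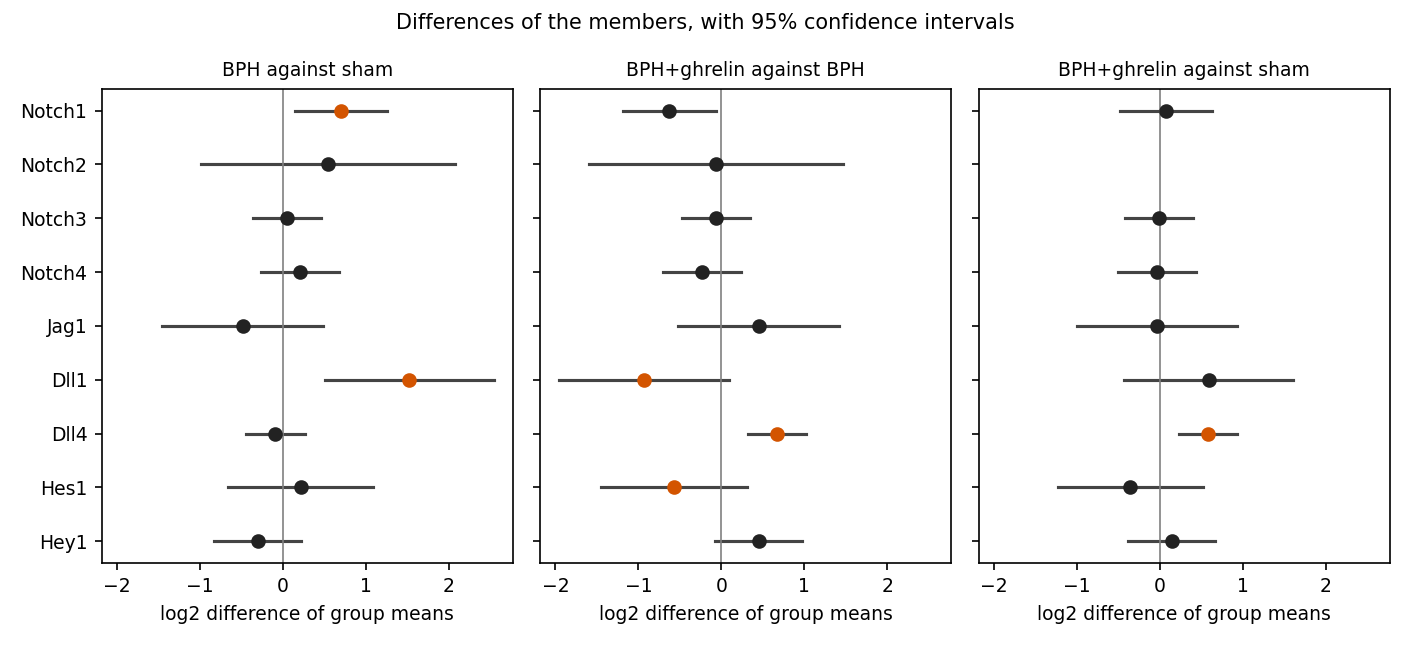
Log2 differences of group means of 9 Notch genes (points) with 95% confidence intervals (lines; limma, 9 arrays) in 3 comparisons; orange points mark genes whose groups did not overlap, the first probe stands for Dll4, and Notch2 was not tested in BPH+ghrelin against sham. The widest intervals are those of Notch2, Dll1 and Jag1, and the values of Dll1 were 1.52, -0.93 and 0.59.

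A Notch gene passed the test in 2 of 18 fits that omitted an array (6 per comparison), and in both it was Dll1 in BPH against sham. Over all 19552 genes, 3071 passed in the fit without sham replicate 1 and 926 in that without sham replicate 2. Within slide 1, which holds the BPH arrays and, as the only array of its group, BPH+ghrelin replicate 1, the 9 genes kept their sign. Differences were nearer to 0 for Notch1 (-0.24), Hes1 (-0.27) and Dll1 (-0.75) and farther from 0 for Notch2 (-0.66) and Notch3 (-0.23), and the median was -0.24.

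Other genes of the pathway were examined as 6 lists of 78 genes, of which 60 had a named probe and 53, 53 and 52 were tested. In BPH against sham, 3 genes passed the test, all of them higher, which is 5.66% of these genes compared to 4.33% of all genes. A gene that was lower (Bhlhe40) passed in BPH+ghrelin against BPH (1.89%, compared to 1.48%), and in BPH+ghrelin against sham 1 was higher and 1 lower (3.85%, compared to 6.30%). The median log2 difference of the 53 genes was 0.10 in BPH against sham and -0.16 in BPH+ghrelin against BPH, where 39 of 53 were below 0 (48.3% of all genes were).

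Adam17, a protease that cuts Notch receptors and many other surface proteins, was higher in BPH than in sham. Log2 signals were 6.98, 6.96 and 6.99 in BPH, 6.36, 6.41 and 6.44 in BPH+ghrelin, and 6.23, 5.89 and 6.48 in sham. BPH arrays were above all others, and BPH+ghrelin and sham overlapped. The difference was 0.77 in BPH against sham (SE 0.16, adjusted p = 0.0360 by limma) and -0.57 in BPH+ghrelin against BPH (SE 0.16, adjusted p = 0.103). Of 8 tested genes of this list of proteases, 7 were above 0 in BPH against sham, compared to 53.7% of all genes. The list mean was 11.275 to 11.278 on the BPH arrays and 11.293, 10.667 and 11.117 on the sham arrays, lowest on the dim sham replicate 2. How far the count rests on this array was not tested.

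In the nuclear complex, the genes that passed the test were Tle4 and Tle2, co-repressors of the Groucho family, whereas Rbpj itself differed by -0.11 in BPH against sham and by -0.12 in BPH+ghrelin against BPH (SE 0.15 each). Tle4 had log2 signals of 6.04, 6.14 and 6.08 in BPH, 5.82, 5.75 and 5.74 in BPH+ghrelin, and 5.33, 4.64 and 5.14 in sham, so that the 3 groups did not overlap. It was higher in BPH than in sham (1.05, SE 0.18, adjusted p = 0.0210) and higher in BPH+ghrelin than in sham (0.74, SE 0.18, adjusted p = 0.0475). Its relative Tle2 had signals of 5.13, 5.08 and 5.20 in BPH, 5.33, 4.88 and 4.39 in BPH+ghrelin, and 6.44, 5.80 and 6.25 in sham, with sham above all other arrays. Tle2 was lower in BPH+ghrelin than in sham (-1.30, SE 0.25, adjusted p = 0.0255), and in BPH against sham it differed by -1.03 (adjusted p = 0.0587). Between BPH+ghrelin and BPH, 0 of 13 genes of this list passed (1.48% of all genes did) and 3 had an unadjusted p under 0.05 (21.1% of all genes; limma), and the largest differences were those of Snw1 (-0.52) and Tle3 (-0.51).

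Bhlhe40, a repressor related to the Hes and Hey proteins that is also regulated by the circadian clock and by hypoxia, had the largest difference among the genes of the pathway that passed the test. Its log2 signals were 5.36, 5.44 and 5.07 in BPH, 4.01, 4.14 and 3.44 in BPH+ghrelin, and 4.19, 3.35 and 3.59 in sham. BPH arrays were above all others, and the other groups overlapped. Bhlhe40 was higher in BPH than in sham (1.58, SE 0.26, adjusted p = 0.0202) and lower in BPH+ghrelin than in BPH (-1.42, SE 0.26, adjusted p = 0.0436), 2 comparisons that share the BPH arrays. With normexp, these differences were 0.41 and -0.38 and still passed. On 8 of 9 arrays its signal was well above background.

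Among the other Hes, Hey and feedback genes, 8 of 9 tested were below 0 in BPH+ghrelin against BPH (48.3% of all genes were). Bhlhe40 alone passed the test, as did 1.48% of all genes. In the same comparison, 12 of 13 endothelial, 7 of 8 pericyte, 9 of 10 smooth muscle and 9 of 10 fibroblast and matrix genes were below 0. The part of these markers in the values of this list was not tested. Of these 9 genes, 4 were not well above background on every array. Id2 (-0.95, adjusted p = 0.299) and Id1 (-0.93, adjusted p = 0.365), inhibitors of basic helix-loop-helix factors, had the next largest differences. Nrarp, a feedback inhibitor that is itself a Notch target, differed by -0.30 (SE 0.23, adjusted p = 0.485).

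No gene of the remaining 3 lists passed the test in any comparison (limma), while 2 of 5 ligands, 5 of 8 glycosylation genes and 2 of 10 trafficking genes had an unadjusted p under 0.05 in BPH against sham (26.5% of all genes), and 1, 2 and 0 in BPH+ghrelin against BPH (21.1%). Dlk1, a non-canonical ligand without the domain that activates the receptor, had the largest differences, of -2.25 in BPH against sham (SE 0.80, adjusted p = 0.130) and 1.74 in BPH+ghrelin against BPH (SE 0.80, adjusted p = 0.255). Its log2 signals were 4.68, 8.46 and 6.72 in sham, 4.22, 4.34 and 4.54 in BPH, and 5.64, 6.01 and 6.67 in BPH+ghrelin, and the spread within sham was the widest. The mean log2 signal of 6 adipocyte genes was 5.81, 8.96 and 7.81 on the same sham arrays, 8.80, 8.48 and 7.99 in BPH, and 5.30, 8.14 and 8.92 in BPH+ghrelin. Its order over the arrays was that of Dlk1 in sham and BPH+ghrelin and the reverse in BPH. The part of the adipocyte genes in the values of Dlk1 was not tested. Mfng, a Fringe enzyme that adds sugars to Notch receptors, had signals of 5.30, 5.18 and 5.59 in BPH+ghrelin, 6.23, 6.16 and 5.93 in BPH, and 5.97, 5.92 and 5.86 in sham. BPH+ghrelin arrays were below all others, with a difference of -0.75 against BPH (SE 0.14, adjusted p = 0.0515). Of 10 tested genes for trafficking and ubiquitin ligases, which control receptor turnover and ligand endocytosis, 6 were above 0 in BPH against sham, compared to 53.7% of all genes.

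**Figure D4:**
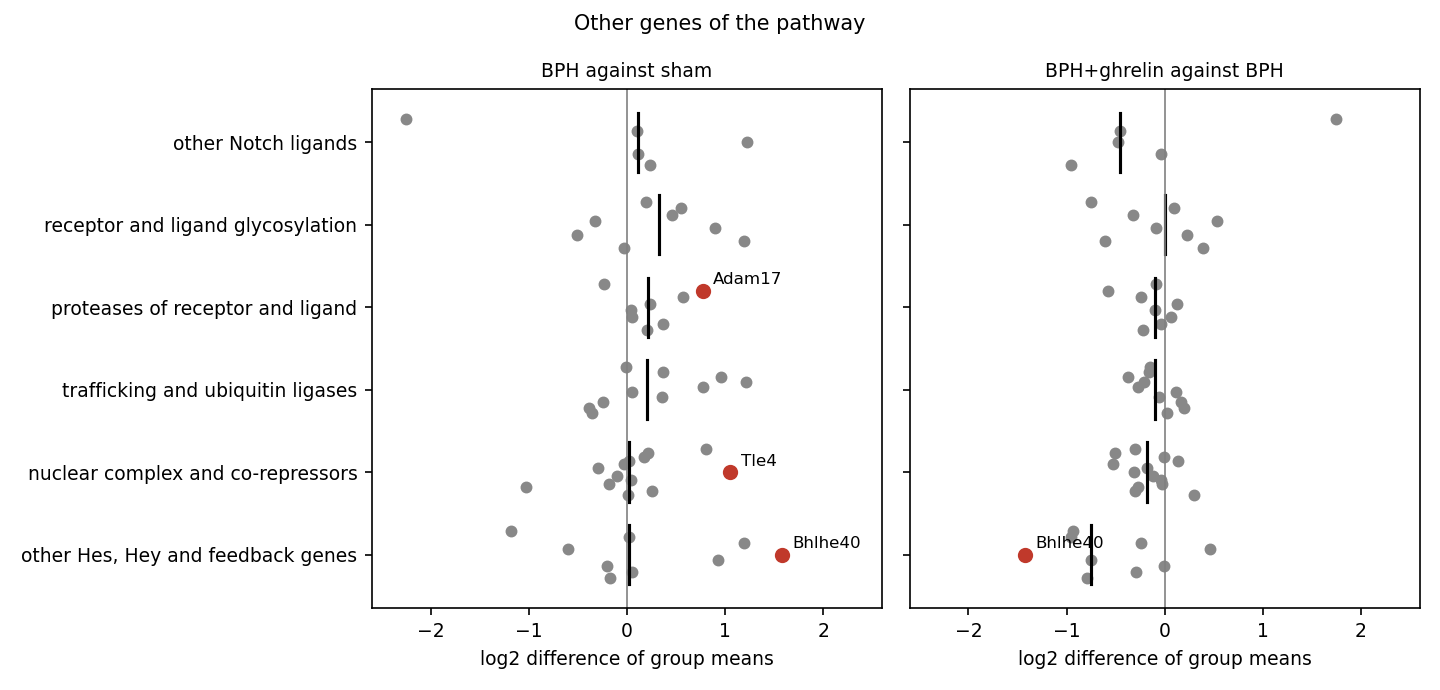
Log2 differences of group means of other genes of the pathway in 6 lists, for BPH against sham and BPH+ghrelin against BPH; each point is 1 gene, short black lines are list medians, and red points passed an adjusted p under 0.05 (limma). Adam17, Tle4 and Bhlhe40 passed in BPH against sham and Bhlhe40 in BPH+ghrelin against BPH, and 8 of 9 points of the Hes, Hey and feedback list are below 0 in the latter.

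These calls were not kept in every fit that omitted an array or changed the processing. With each array left out in turn, Adam17 passed in 2 of 6 fits, Tle4 in 3 of 6 and Bhlhe40 in 2 of 6 in BPH against sham, Bhlhe40 in 0 of 6 in BPH+ghrelin against BPH (lowest adjusted p = 0.0533), and Tle2 in 3 of 6 and Tle4 in 2 of 6 in BPH+ghrelin against sham, with the direction kept in every fit. With slide as a fixed block, none of these calls was kept, and 2, 2 and 84 of all genes passed in the 3 comparisons. The differences were then 0.98 (Adam17), 1.02 (Tle4) and 1.30 (Bhlhe40) in BPH against sham and -1.28 (Bhlhe40) in BPH+ghrelin against BPH. In BPH+ghrelin against sham they were -1.49 (Tle2) and 0.76 (Tle4). With normexp, the calls of Tle2 (-0.48, adjusted p = 0.0656 by limma) and Tle4 (0.26, adjusted p = 0.0686) in BPH+ghrelin against sham were lost.

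Lists of basal epithelial and cell cycle genes were also examined. In BPH against sham, 8 of 10 basal genes were above 0 (53.7% of all genes were), with a median of 0.72. Lgals7 (1.65, adjusted p = 0.00599 by limma) and Krt14 (0.72, adjusted p = 0.0447) passed the test, as did 4.33% of all genes. Tp63, of the same list, went the other way, with log2 signals of 10.16 to 10.44 in BPH and 10.63 to 11.58 in sham. The mean log2 signal of the basal list was 7.96 to 8.18 in BPH, 8.01 to 8.18 in BPH+ghrelin and 7.30 to 7.77 in sham. For the cell cycle list, 12 of 12 genes were above 0 in BPH against sham and 11 of 12 in BPH+ghrelin against BPH (51.7% of all genes), with mean log2 signals of 6.71 to 8.32 in BPH, 8.34 to 9.13 in BPH+ghrelin and 6.51 to 7.33 in sham. None of the 12 passed the test in these 2 comparisons (limma), with 2 and 9 at an unadjusted p under 0.05 (26.5% and 21.1% of all genes), and the BPH and sham means overlapped. In BPH+ghrelin against sham, 5 of 12 passed, all higher (6.30% of all genes passed). The part of these lists in the Notch values was not tested.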

How the data were processed

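Gene expression had been measured in 9 rat prostates (3 sham, 3 BPH, 3 BPH+ghrelin), 1 Agilent array each, and groups and replicate numbers were taken from the sample labels. The intensity deposited by the authors was the signal of the scanner software (Feature Extraction 11.0.1.1 per the file headers), background-subtracted and not normalized between arrays. The authors also deposited a matrix of log2 values, quantile normalized (in GeneSpring GX, per the methods of the study), which was used as an alternative. Other deposited columns used were the median signal and its background (for normexp) and spot flags (other: outlier, control, saturated, well above background). In the matrix, 0 columns of per-sample values were left unused, whereas only the named columns of the scanner files were read.

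Outlier spots were removed, spots of a probe were averaged, and the log2 values of all 9 arrays were brought to 1 distribution by quantile normalization. Probe accessions were matched to RefSeq symbols (GRCr8, for names and for the promoter windows shown), which named 17998 of 30356 probes (59.3%). A probe was compared if well above background on at least 3 of 6 arrays, and the passing probe with the highest mean represented a gene. All 9 arrays were fitted in R 4.3.3 with limma 3.58.1 (lmFit, eBayes) and Benjamini-Hochberg adjustment over all genes tested (19552 in BPH against sham, 19749 in BPH+ghrelin against BPH, 19197 in BPH+ghrelin against sham). These numbers exceed the 15163 symbols matched, so probes without a symbol are counted among all genes. The fit was tested on simulated data. The number of arrays limits the precision. The p-values rest on the spread between arrays of a group, taken as independent. They do not account for the array of each group that lay between the others for most probes. With 3 arrays per group, 0.1 is the smallest p of a two-sided exact permutation test.

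Some genes (Rbpj, Nrarp, Mfng, Eng, Sox17, Tek, Tie1, Pbsn, Cldn5, Pecam1, Kdr, Cdh5, Lgals7, Krt14 and Tp63) were chosen after their values had been seen. Otherwise the text names the 10 Notch genes, pathway genes that passed the test, up to 2 genes per list with the largest difference, and the 3 genes most like Dll4. A gene that this rule names is not reported here. Members and lists were chosen with earlier results of these data known. Alternatives were scaling to the 75th percentile, normexp (offset 50, on the median signal columns), other filters, the mean of the probes, only the 6 arrays compared, eBayes with trend and robust, the deposited matrix, replicate number and slide as blocks, and each array left out. Testing every probe, leaving out 3 arrays together and unadjusted p-values were added after the data had been seen.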

Additional observations from a re-analysis of the deposited data

How the results depend on the processing

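The number of Notch genes with an adjusted p under 0.05 was 0 in each comparison. In BPH against sham it was 1 in the deposited matrix (1035 of all 19552 genes passed), 2 with slide as a random block (7088 genes, consensus correlation -0.212), 1 by a 2-fold difference without test and 2 by unadjusted p. In BPH+ghrelin against BPH it was 2 with only the 6 arrays compared (2101 of 19749 genes), 1 with slide as a random block (1830 genes) and 2 by unadjusted p, and in BPH+ghrelin against sham it was 1 by unadjusted p. With each array left out in turn, it ranged from 0 to 1, from 0 to 0 and from 0 to 0 in the 3 comparisons. The cause of these differences was not tested.

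Replicate numbers did not pair the arrays: correlations of the deviations of arrays with the same number were -0.182 to 0.376. With a replicate block, 0 Notch genes passed in each comparison, and over all genes 243, 17 and 461 passed, instead of 847, 293 and 1210. With slide as a fixed block 2, 2 and 84 genes passed, and without the 3 arrays lying between the others 3, 0 and 2. Of the calls of other pathway genes, none was kept in these last 2 settings, while the differences kept their direction (without 3 arrays, Adam17 0.92, Tle4 1.08 and Bhlhe40 1.44 in BPH against sham, Bhlhe40 -1.49 in BPH+ghrelin against BPH, Tle4 0.80 and Tle2 -1.26 in BPH+ghrelin against sham). With only the 6 arrays compared, adjusted p-values were 0.119 (Adam17), 0.0874 (Tle4) and 0.0606 (Bhlhe40) in BPH against sham, and 0.103 (Tle4) and 0.0665 (Tle2) in BPH+ghrelin against sham. With a replicate block they were 0.0805 (Adam17) and 0.0582 (Tle4) in BPH against sham, 0.0795 (Bhlhe40) in BPH+ghrelin against BPH, and 0.0906 (Tle4) and 0.0502 (Tle2) in BPH+ghrelin against sham. Without a filter on dim probes they were 0.0534 (Adam17, BPH against sham), 0.0641 (Bhlhe40, BPH+ghrelin against BPH) and 0.0727 (Tle4, BPH+ghrelin against sham), the last being 0.0832 with 75th percentile scaling and 0.0533 with trend and robust. In BPH against sham, normexp reduced Adam17 to 0.46 and Tle4 to 0.44, which passed.

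Signs that turned belonged to small or dim values. Scaling to the 75th percentile, which moved the median of all genes to -0.087 (BPH against sham) and 0.096 (BPH+ghrelin against BPH), gave Notch3 -0.022, 0.087 and 0.064 in the 3 comparisons, Notch2 -0.14 and 0.25 in the first 2, and the second Dll4 probe -0.13 in the first. The median of the Notch genes was then -0.022 and 0.087 in the first 2 comparisons, and -0.013 in the third with the filter on all 6 arrays; in BPH against sham it was 0.051 with that filter and in the deposited matrix. In BPH against sham, Notch2 was -0.056 in the deposited matrix, Hes1 -0.13 and Dll4 0.039 with slide as a fixed block, Notch3 -0.025 with slide as a random block, and the second Dll4 probe -0.11 without 3 arrays. In BPH+ghrelin against BPH, Notch2 was 0.0069 in the matrix and Notch3 0.0048 with slide as a random block. In BPH+ghrelin against sham, Notch3 was 0.060 with normexp and 0.028 with slide as a fixed block, Notch1 -0.13 and Jag1 0.0087 with slide as a fixed block, and Jag1 0.099 and Hey1 -0.034 without 3 arrays.

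With each array left out in turn, signs turned in BPH against sham for Notch3 (-0.10 to 0.18), Hes1 (-0.25 to 0.57), Notch2 (-0.29 to 0.98) and the second Dll4 probe (-0.12 to 0.16), in BPH+ghrelin against BPH for Notch3 (-0.19 to 0.089) and Notch2 (-0.51 to 0.23), and in BPH+ghrelin against sham for Notch3 (-0.14 to 0.068), Notch1 (-0.12 to 0.28), Notch4 (-0.20 to 0.18), Jag1 (-0.46 to 0.27) and Dll1 (-0.011 to 1.00). Low signal over background limits Notch2 and Dll1.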
